A study of Canis lupus familiaris with 124 samples.

Results

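Metastasis tissues of canine prostate cancer were compared with primary tumor tissues of the prostate and bladder at the level of the whole transcriptome. The members are the 3 original tissues whose labels give a metastasis, named Ln4.2, Ln4.3 and Ln6.2, and they were set against the 6 original tissues labelled as primary tumors, named P2, P6.1, B7, B8, B9 and B10. These 9 tissues are part of 31 libraries in the series, and the remaining libraries are cell lines, which entered no test. Each tissue was sequenced once on 4 lanes, and the lanes were summed. Total counts lay between 11920463 and 18086895 per tissue, with a median of 14840708.

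The 9 tissues came from 7 dogs. Ln4.2 and Ln4.3 are metastases of prostate adenocarcinoma (PAC) from dog 4, a neutered male Dobermann of 6 years. Ln6.2 is a metastasis of transitional cell carcinoma (TCC) from dog 6, a neutered male Bolonka Zwetna of 9 years, and P6.1 is the primary TCC in the prostate of the same dog. P2 is the only primary PAC, from a male German Rough-haired Pointer of 6 years. B7, B8, B9 and B10 are TCC of the bladder from female dogs: a Labrador Retriever of 10 years, a Cairn Terrier of 11 years, a neutered Miniature Pinscher of 8 years and a German Shepherd of 8 years. According to the study's methods and names, the metastases were taken from lymph nodes. No primary tumor of dog 4 is among the 9 tissues. Metastases therefore came from 2 dogs, both male, whereas 4 of the 6 primary tumors came from females and from another organ. All metastases came from lymph nodes and no primary tumor did, so lymph node surroundings cannot be told apart from metastasis. Sex and organ differ between the groups in part, since only P2 and P6.1 are prostate tumors of males, and only dog 6 gave both kinds of tissue. Histology differs in part as well, since 2 of the 3 metastases but only P2 among the primary tumors are PAC. Against P2 and P6.1 alone, edgeR called 0 genes, and with histology as a covariate it called 0 too.

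A metastasis in a lymph node grows among lymphocytes, macrophages, vessels and a capsule of connective tissue, and a carcinoma also brings along or recruits its own fibroblasts. Carcinoma cells themselves express junction proteins such as EPCAM, claudins and plakophilins, and urothelial and basal cells express the transcription factor TP63. RNA from a piece of frozen tissue mixes all of these cells. In such bulk samples, fewer cells of a type and less RNA per cell cannot be told apart. From earlier histology, the paper describes lymphoid and connective tissue beside the tumor cells of Ln4.2 and Ln4.3. It describes B7 as almost only tumor cells.

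The metastases did not stand apart from the primary tumors as a group. Distances between tissues were calculated on log2 CPM (counts scaled to the library total, with TMM factors) over the 15103 genes that passed the count filter. Ln4.2 and Ln4.3, from the same dog, were the closest of all 36 pairs, at a distance of 113.2. The next closest pair was Ln6.2 and the primary PAC P2, at 142.1, although they differ in dog and in histology. Ln4.2 and P2 followed at rank 4 with 146.7. Ln6.2 lay at 165.5 from Ln4.2, at 186.9 from Ln4.3 and at 189.2 from P6.1, the primary tumor of its own dog, which was only rank 14 of the 36 pairs. On the first principal component, which held 45.4% of the variance, Ln6.2, Ln4.2 and Ln4.3 took values of -116.7, -84.7 and -53.6. P2 was at -143.7 on the same side, P6.1 was at 24.8 and the bladder tumors were between 47.9 and 125.2. Ln4.2 and Ln4.3 are separate libraries, since their counts differed by 201.1 times the variance that counting alone gives.

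**Figure D1:**
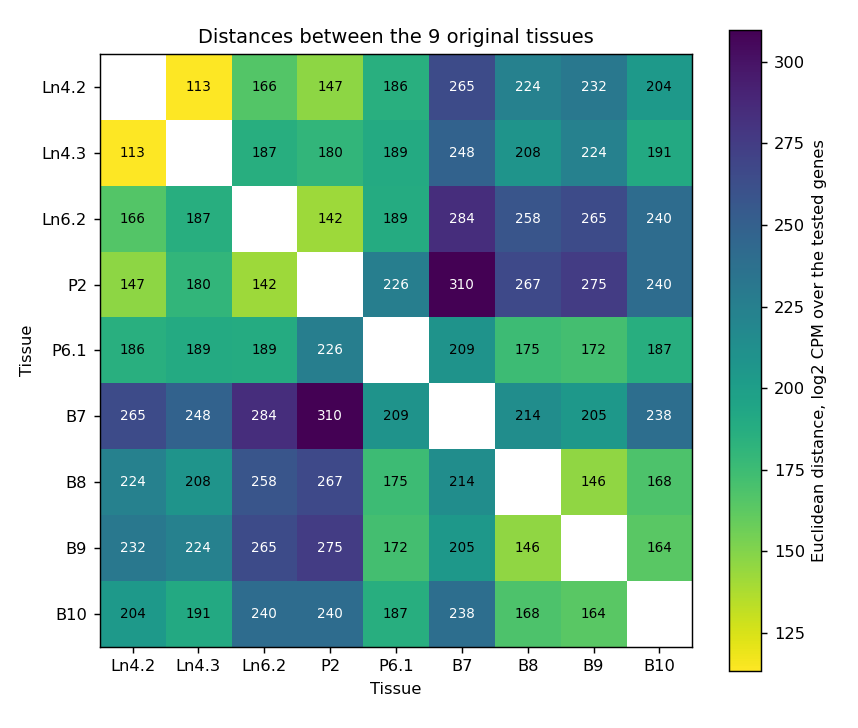
Euclidean distance on log2 CPM between each pair of the 9 original tissues; both axes list the tissues, and darker cells are larger distances. The cell of Ln4.2 and Ln4.3 holds the smallest value (113.2), and P2 lies nearer to the 3 metastases than to any other primary tumor.

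The test of all 3 metastases against all 6 primary tumors called no gene. With edgeR's quasi-likelihood F test, 0 of 15103 genes (0%) passed, where a call needed both a 2-fold difference and an adjusted p (Benjamini-Hochberg) no larger than 0.05. The smallest adjusted p was 0.145, and it belonged to ENSCAFG00000024609, a gene without a symbol here, with 31.7, 5.68 and 9.49 CPM in Ln6.2, Ln4.2 and Ln4.3 and 0.0634 to 0.409 CPM in the primary tumors. At an unadjusted p under 0.05 there were 1023 genes (6.77%), of which 410 (2.71%) were higher and 613 (4.06%) lower in the metastases. DESeq2, the tool of the authors, called 204 genes (1.40%) on the same counts, 54 higher (0.371%) and 150 lower (1.03%). These shares are of the 14556 genes to which it gave a p-value. The result of edgeR rested on 1 tissue. When P2 was left out, edgeR called 239 genes (1.58%), 204 higher (1.35%) and 35 lower (0.232%), and this alternative was chosen for description after the position of P2 had been seen. DESeq2 without P2 called 1148 genes higher (7.74%) and 590 lower (3.98%), of 14838 genes with a p-value. Without P2 all primary tumors left are TCC, while Ln4.2 and Ln4.3 are PAC, so these calls cannot separate histology from metastasis. A limma-voom fit with the dog as a block, in which dogs 4 and 6 give 2 tissues each, called 307 genes (2.03%), 253 higher (1.68%) and 54 lower (0.358%), and the same fit without the block called 0. The spread among these tissues was wide, with a biological coefficient of variation of 0.748. Since no gene passed in the comparison of all 9 tissues, values of single genes are described below without a verdict on them.

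Only 1087 of the 15103 genes tested carry a symbol here. These symbols were paired with identifiers in tables of the study, mostly tables of genes ranked for drug resistance in the cell lines, so the named genes are not a random draw from the transcriptome.

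A small number of genes kept all 3 metastases on one side of all 6 primary tumors. The metastases were above every primary tumor in 177 genes (1.17%) and below every one in 225 genes (1.49%). A random order of the tissues, without any difference between the groups, would give shares of about this size on each side. These counts alone are therefore no evidence of a group difference. Genes without overlap are described below as values of single tissues and not as established traits of metastases. With a gap of at least 2-fold, 16 genes (0.106%) were higher and 11 (0.0728%) lower. Of these 27 genes, 5 have a symbol: EGF, A2M and COL6A5 were higher, MUC13 and IRX2 lower. A gene with fewer than 10 counts in every primary tumor could pass the count filter only if all 3 metastases reached 10 counts. Such a gene was bound to have higher counts in the metastases, so its lack of overlap is no separate result. EGF is such a gene. A2M and IRX2 belong to no list used here and were named after their values were seen.

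EGF encodes epidermal growth factor, a ligand of EGFR. It had 1.06 CPM in Ln6.2, 7.42 in Ln4.2 and 9.75 in Ln4.3. Among the primary tumors, B10 had 0.332 CPM (4 counts), B9 had 0.0682 CPM (1 count) and the other 4 had no count. The fitted difference was 6.48 ± 1.26 on the log2 scale (SE), with an adjusted p of 0.719 in edgeR, and it leans on 5 counts in all primary tumors together. EGFR, the receptor, had 52.6, 64.3 and 66.8 CPM in Ln6.2, Ln4.2 and Ln4.3 and 43.5 to 192 CPM in the primary tumors, so that the groups overlapped (log2 difference -0.84 ± 0.45). EGF had 0 counts in the pooled libraries of Metadcarc1511.2 and Metadcarc1511.3, the cell lines of the dog 4 metastases.

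A2M encodes alpha-2-macroglobulin, a secreted protease inhibitor. Its levels were 163 CPM in Ln6.2, 64.5 in Ln4.2 and 676 in Ln4.3, against 1.14 to 27.7 CPM in the primary tumors, where P2 was the highest. The log2 difference was 5.00 ± 1.03. In contrast to EGF, A2M was abundant in the lines Metadcarc1511.2 and Metadcarc1511.3, with 582 and 824 CPM of their own totals. TCC1509, the line of P6.1 in dog 6, had 1.42 CPM.

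COL6A5 encodes an alpha chain of collagen VI. Ln6.2 held 1240 CPM, Ln4.3 held 88.2 and Ln4.2 held 49.3, whereas the primary tumors ranged from 0.0556 CPM in B8 to 12.6 in B10. The log2 difference of 7.44 ± 1.83 depended on Ln6.2 in part, and was 4.69 without it. COL6A5 had at most 0.0193 CPM in Metadcarc1511.2, Metadcarc1511.3 and TCC1509.

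Other genes with symbols were higher in all 3 metastases by a narrower gap. LTBP2, an extracellular matrix protein associated with elastic fibres, had 561, 106 and 79.8 CPM in Ln6.2, Ln4.2 and Ln4.3 and 4.3 to 50.7 CPM in the primary tumors (log2 difference 3.62 ± 0.89). THBS4, a thrombospondin of the extracellular matrix, had 1420, 60.0 and 212 CPM against 0.166 to 39.0 CPM (5.31 ± 1.54, and 3.26 without Ln6.2). TREM2, a receptor of macrophages, had 24.7, 9.01 and 6.54 CPM against 0.127 to 5.06 CPM (2.66 ± 0.81). In each of the 3, Ln6.2 was the highest of all 9 tissues. Transcription factors EGR3 and TBX1, the sphingosine kinase SPHK1, the kinase PRKX and GH1 completed the genes with symbols that were higher without overlap. These were 11 of 1087, beside 1.17% of all genes.

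MUC13, a transmembrane mucin of epithelial surfaces, was lower in every metastasis than in every primary tumor. It had 0.354 CPM in Ln6.2, 0.624 in Ln4.2 and 1.37 in Ln4.3, against 81.4 in P6.1, 25.1 in P2, 132 in B8, 50.8 in B9, 8.79 in B10 and 552 in B7. The log2 difference was -7.48 ± 1.63. DESeq2 called it with an adjusted p of 1.49e-08. In cell lines, MUC13 was low both in those of the dog 4 metastases, at 0.348 and 0.0191 CPM, and in those of the primary tumors P6.1 (TCC1509) and P2 (Adcarc0846), at 0.0385 and 0.0526 CPM. TCC1506, a line of dog 7 (the dog of B7), had 259 CPM.

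IRX2, a homeobox transcription factor, had 0.567 CPM in Ln6.2, 0 in Ln4.2 and 0.131 in Ln4.3, and 1.77 to 14.5 CPM in the primary tumors (log2 difference -5.0 ± 1.24). HNF4G, a nuclear receptor of epithelia, had 1 count in each metastasis and 3 to 51 counts in the primary tumors. It passed the count filter through primary tumors only. CLEC7A, a receptor for fungal glucans on myeloid cells, was lower in the metastases as well, with 0.496 to 1.57 CPM against 1.69 to 84.7 CPM, although P2 lay close to the metastases. Of the 1087 genes with symbols, 20 were lower without overlap, beside 1.49% of all genes. Among them were TCAF2, PUS10, APOOL, IFNGR2, CHCHD10, GTF2A1, GOSR1 and SREBF1, the transcription factor of lipid synthesis. Their log2 differences were smaller, from -1.95 (APOOL) to -0.78 (GTF2A1).

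**Figure D2:**
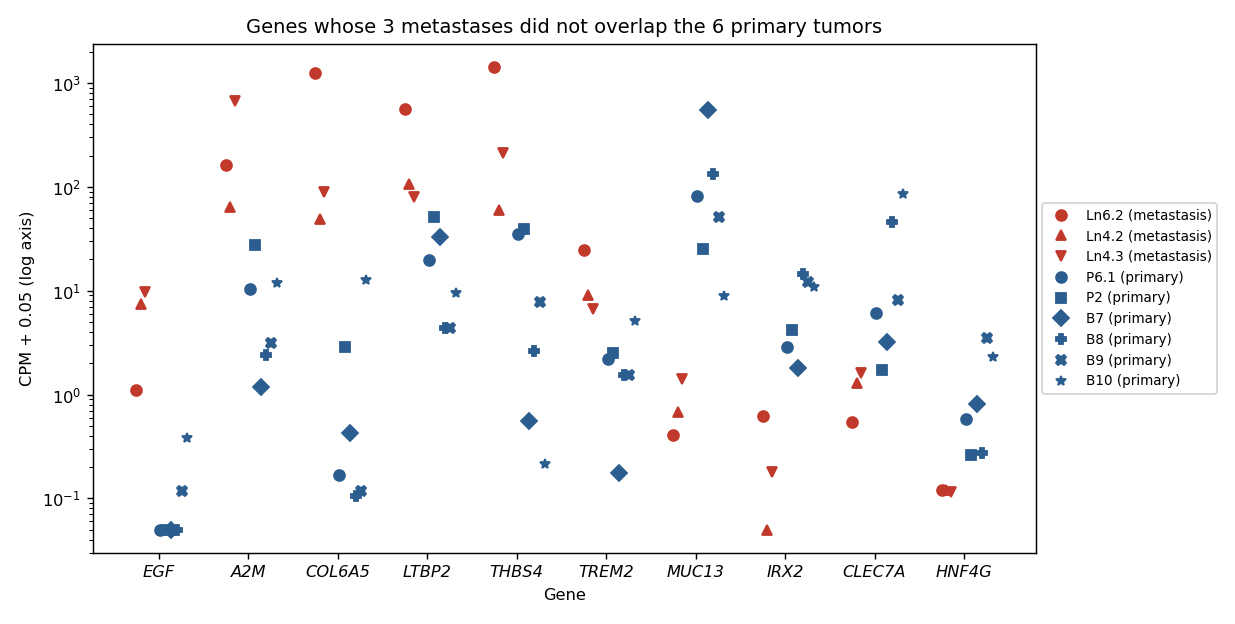
CPM plus 0.05 on a log axis for 10 genes whose 3 metastases (red) lay above or below all 6 primary tumors (blue); each point is 1 tissue. MUC13 is at or under 1.37 CPM in the metastases and at or above 8.79 CPM in the primary tumors, and EGF is at 0 in 4 primary tumors.

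Among genes of connective tissue, the metastases had high levels but so did P2. The summed TPM (transcript abundance per length, on a scale that sums to the same total in each library) of 15 collagens was 17700 in Ln6.2, 21100 in Ln4.2 and 2760 in Ln4.3. It was 34200 in P2, 1080 in P6.1 and 317 to 599 in the bladder tumors. All 3 metastases thus exceeded 5 of the primary tumors, and P2 exceeded them. Of the 15 collagens, 14 had a fitted log2 difference above 0 (all genes: 44.0%), with a median of 1.40 (all genes: -0.10), and 0 were called. At an unadjusted p under 0.05 there was 1 of 15, COL6A5, beside 6.77% of all genes. The next lowest p-values belonged to COL16A1, COL8A2 and COL27A1. COL16A1, a collagen associated with fibrils, had 881, 429 and 60.0 CPM in Ln6.2, Ln4.2 and Ln4.3, against 9.76 to 55.9 CPM in 5 primary tumors and 418 CPM in P2. The fibrillar collagen COL1A1 had 18800, 20300 and 3170 CPM in the metastases, 35500 in P2, 660 in P6.1 and 128 to 334 in the bladder tumors.

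The 34 further matrix genes of fibroblasts behaved alike in number. Their fitted difference was above 0 in 31, with a median of 1.15, and 3 of 34 had an unadjusted p under 0.05: LTBP2, THBS4 and KERA. KERA, a small proteoglycan, had 19.1 CPM in Ln4.2, 5.25 in Ln6.2 and 0.131 in Ln4.3, and its log2 difference of 3.33 was 1.72 without Ln4.2. LOXL3, a lysyl oxidase that crosslinks collagen, had 18.3 to 81.6 CPM against 3.89 to 47.2 CPM. Summed TPM of the list was 16100 in Ln6.2, 12800 in Ln4.2, 2260 in Ln4.3, 19000 in P2, 4640 in P6.1 and 1340 to 1490 in the bladder tumors. Ln4.3 therefore stood below P6.1.

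For 12 endothelial genes the median was 0.83, and 10 of 12 were fitted higher. FLT4, the receptor of lymphatic endothelium for VEGF-C, was the 1 gene with an unadjusted p under 0.05, with 35.2, 72.2 and 105 CPM in Ln6.2, Ln4.2 and Ln4.3 and 12.1 to 39.2 CPM in the primary tumors (log2 difference 1.54 ± 0.47). It was also present in the dog 4 metastasis lines at 81.9 and 69.7 CPM. ICAM2, ADGRA2 and CD93 had the next lowest p-values, and in each of them P2 was above at least 1 metastasis. Summed TPM was 297, 495 and 259 in Ln6.2, Ln4.2 and Ln4.3, 862 in P2 and 26.2 to 158 in the other primary tumors. The 5 smooth muscle genes had a median of 0.36, with 3 fitted higher. MYH11 and CNN1 carry no symbol here and were not analysed. ACTA2, the smooth muscle actin, had 480, 288 and 95.1 CPM in the metastases, 862 in P2, 123 in P6.1 and 11.8 to 52.5 in the bladder tumors. FLNC, GUCY1A1 and LMOD3 overlapped between the groups too, with log2 differences of 1.29, -0.52 and -0.19.

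Leukocyte genes were high in P2 as well, while the order of the metastases differed from that for collagens. None of 12 genes of leukocytes in general and none of 13 tested lymphocyte markers had an unadjusted p under 0.05, while 11 of 12 and 13 of 13 were fitted higher, with medians of 1.15 and 0.95. RAC2, a small GTPase of blood cells, had 30.7, 35.5 and 83.3 CPM in Ln6.2, Ln4.2 and Ln4.3, 69.9 in P2, 4.67 in P6.1 and 1.71 to 15.3 in the bladder tumors. RFTN1, HVCN1 and PLEK were likewise higher in all 3 metastases than in 5 primary tumors, and P2 was above every metastasis in each of them. IL2RG, the common cytokine receptor chain, had 16.7, 18.7 and 85.2 CPM against 61.5 in P2 and 0.955 to 13.8 in the others. P2RY10, LEF1 and TCF7 were the lymphocyte genes with the lowest p-values, and for each of them P2 lay above at least 1 metastasis. Summed TPM of lymphocyte markers was 270, 137 and 232 in Ln6.2, Ln4.2 and Ln4.3, 338 in P2, 151 in P6.1 and 22.0 to 134 in the bladder tumors. The usual defining genes PTPRC, CD3E, CD79A and MS4A1 carry no symbol here and were not analysed.

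Among 18 myeloid markers, 15 were fitted higher (all genes: 44.0%), with a median of 0.48. An unadjusted p under 0.05 (all genes: 6.77%) was found for 3: TREM2, CLEC7A and ITGAX. Their directions differed, since TREM2 was higher and CLEC7A lower. ITGAX, an integrin chain of macrophages and dendritic cells, had 58.2, 34.5 and 129 CPM against 4.25 to 52.4 CPM. TLR2 was next, at 14.1 to 23.7 CPM against 0.570 to 34.6 CPM. CSF1R, the growth factor receptor that defines macrophages, had 128, 106 and 242 CPM in the metastases and 10.6 to 348 CPM in the primary tumors. The 11 genes of antigen presentation and interferon response had a median of -0.09, near that of all genes. IFNGR2, a chain of the interferon gamma receptor, was the lowest in p, with 124 to 158 CPM in the metastases and 202 to 344 CPM in the primary tumors. ICAM1, DLA-79 and APOBEC3Z3 overlapped between the groups.

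Epithelial genes ran the other way. Of 29 genes listed for epithelial junctions and surfaces, 22 carry a symbol here. The usual markers CDH1 and KRT8 are not among them and were not analysed. Of the 22 genes, 19 were fitted lower, with a median of -1.08, 0 were called and 3 had an unadjusted p under 0.05. Summed TPM was 584 in Ln6.2, 1920 in Ln4.2 and 2020 in Ln4.3, 360 in P2 and 2700 to 6440 in the other primary tumors. The 3 metastases were thus below 5 primary tumors and above P2. EPCAM, the epithelial cell adhesion molecule, had 13.2 CPM in Ln6.2, 208 in Ln4.2 and 230 in Ln4.3, against 17.7 in P2, 409 in P6.1 and 313 to 2010 in the bladder tumors. MUC13, PKP2 and ITGB6 were the 3 genes with the low p-values. ITGB6, an integrin chain of epithelia that activates latent TGF-beta, had 4.78 to 10.3 CPM in the metastases, 3.95 in P2 and 32.3 to 192 in the other primary tumors. TMPRSS2, a serine protease of epithelial surfaces, was next in p, with 1 count in Ln6.2, 25.2 and 32.6 CPM in Ln4.2 and Ln4.3 and 0.494 to 1860 CPM in the primary tumors.

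The 3 genes of this list that were fitted higher were PKP2, TGM1 and MAL2. In the dog 4 comparison described below, 6 of the 22 were higher and 15 lower. MAL2 had 46.5 and 71.4 CPM in Ln4.2 and Ln4.3, 1 count in Ln6.2 and 0.706 to 48.6 CPM in the primary tumors. PKP2, a desmosomal plakophilin, had 226 CPM in Ln4.2 and 235 in Ln4.3, but 11.3 in Ln6.2, against 2.60 to 29.8 CPM in the primary tumors. TGM1, the transglutaminase of cornified epithelia, likewise had 47.8 and 64.8 CPM in the dog 4 metastases, 0.922 in Ln6.2 and 1.69 to 22.9 CPM in the primary tumors. Among the 9 tissues, PKP2 and TGM1 therefore marked the metastases of 1 dog. The cell lines did not show this. PKP2 had 84.3 and 108 CPM in Metadcarc1511.2 and Metadcarc1511.3, 165 in Adcarc0846, 97.8 in TCC1506 and 34.3 in TCC1509. TGM1 had 0.734 and 0.438 CPM in the dog 4 metastasis lines, 0.447 in Adcarc0846, 13.3 in TCC1506 and 1.02 in TCC1509.

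Basal epithelial genes and prostate cancer markers were also mostly fitted lower, in 9 of 11 and 13 of 14 tested genes, with medians of -0.83 and -0.95. Both lists hold TP63, which had 0.416 to 0.654 CPM in the metastases and 0.212 in P2, but 43.5 in P6.1 and 11.2 to 177 in the bladder tumors (log2 difference -6.68 ± 1.73). LAMA3, a laminin chain of epithelial basement membranes, had 44.6, 109 and 134 CPM in Ln6.2, Ln4.2 and Ln4.3, 83.6 in P2 and 209 to 633 in the other primary tumors (-1.88 ± 0.66). TRIM36, a ubiquitin ligase, had 4.54 to 9.23 CPM against 6.35 to 33.2 CPM. Of the prostate cancer markers, ESR1, the estrogen receptor alpha, had 2.69, 15.5 and 0.327 CPM in Ln6.2, Ln4.2 and Ln4.3 and 3.11 to 137 CPM in the primary tumors. GOLM1, a Golgi membrane protein, was the 1 prostate marker fitted higher, with 52.5 to 93.6 CPM against 10.3 to 56.0 CPM. KLK2 and SPINK1 had no count in any of the 9 tissues, so these prostate genes do not check the labelled origin.

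Of 18 proliferation genes, 13 were fitted lower with a median of -0.26, and 0 had an unadjusted p under 0.05. CDCA7L, VRK1, SASS6 and CKAP5 had the lowest p-values. CDCA7L, a cell division cycle associated protein, had 255 and 266 CPM in the dog 4 metastases, 34.1 in Ln6.2 and 31.6 to 223 in the primary tumors. PLK1, the mitotic kinase, had 8.58 CPM in Ln6.2, 45.5 and 62.8 in Ln4.2 and Ln4.3 and 11.6 to 132 in the primary tumors. In signalling, 15 of 26 genes of growth factor and JAK-STAT pathways were fitted higher, and their median of 0.06 was close to that of all genes. EGF and IL6 were the 2 with an unadjusted p under 0.05. IL6, the inflammatory cytokine, had 145 CPM in Ln4.2, 11.3 in Ln6.2 and 1.70 in Ln4.3, against 0.190 to 6.21 CPM, and the log2 difference of 4.64 was 1.61 without Ln4.2. VEGFA, which drives vessel growth, had 40.5 to 93.7 CPM against 41.4 to 411 CPM. JAK2 and STAT3 differed by 0.01 ± 0.34 and 0.07 ± 0.42 on the log2 scale.

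**Figure D3:**
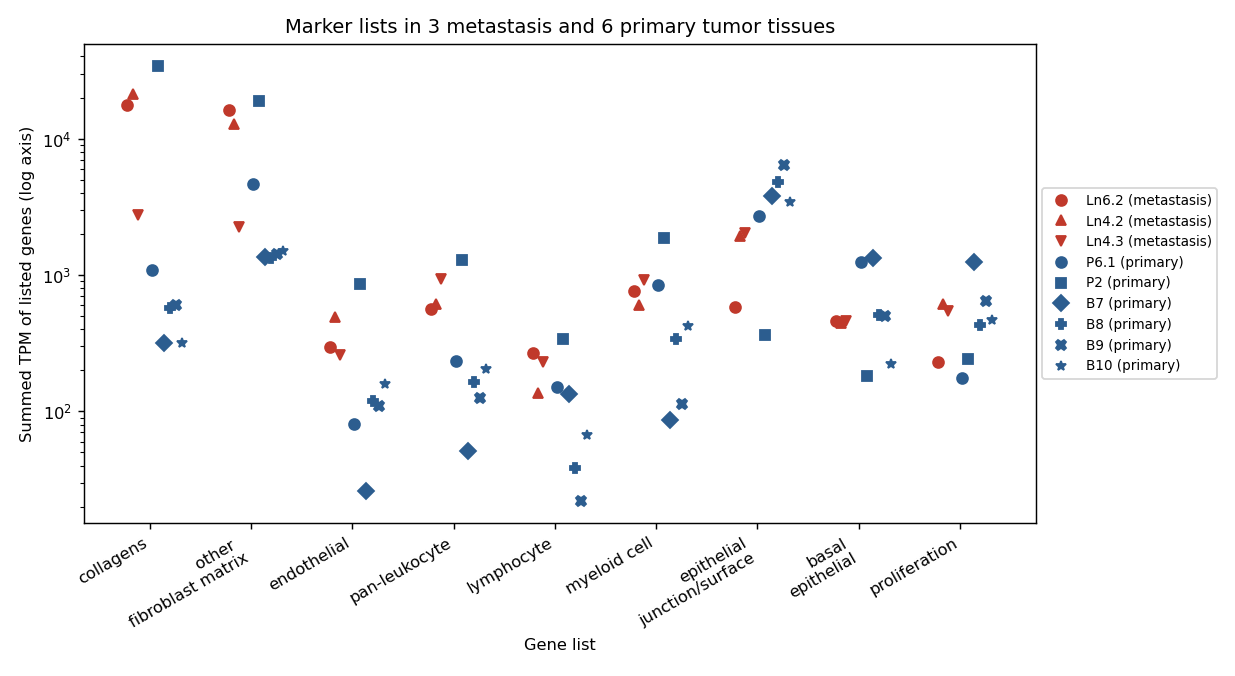
Summed TPM on a log axis for 9 gene lists; each point is 1 tissue, metastases in red and primary tumors in blue. P2 is the highest point for collagens (34200) and the lowest for epithelial genes (360), beyond all 3 metastases.

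The size of the contrast for these lists depended on P2. Without P2, the median log2 difference moved from 1.40 to 3.43 for collagens, from 1.15 to 3.16 for the other matrix genes, from 0.95 to 2.04 for lymphocyte markers and from 0.48 to 1.51 for myeloid markers. These are fitted values over different sets of primary tumors. Epithelial genes moved from -1.08 to -1.28. In that setting, edgeR called 6 of 15 collagens higher, beside 1.35% of all genes: COL1A1, COL1A2, COL3A1, COL6A1, COL6A2 and COL16A1. It also called 2 of 34 matrix genes (PCOLCE and ANGPTL2), 2 of 13 lymphocyte markers (P2RY10 among them) and ADGRA2, HVCN1, IGF1 and EGF higher. MUC13, ITGB6 and TP63 were called lower, beside 0.232% of all genes. DESeq2 without P2 called more members: 10 of 15 collagens, 21 of 34 matrix genes, 7 of 13 lymphocyte markers, 7 of 12 general leukocyte genes, 7 of 18 myeloid markers and 5 of 12 endothelial genes higher, beside 7.74% of all genes. With P2 included, DESeq2 gave no p-value for RAC2, HVCN1, RFTN1, IL2RG and ADGRA2, so these could not be called there. Without P2 it called 9 of 22 epithelial genes lower, beside 3.98% of all genes. Because P2 was singled out for its values, these calls describe the other 8 tissues only. The primary tumors among them are all TCC, so PAC against TCC is mixed into these calls.

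With the dog as a block, partly different genes were called. The log2 difference was 12.32 for COL6A5, 4.78 for LTBP2, 6.89 for THBS4, 3.75 for TREM2 and 4.77 for EGF, with adjusted p-values in limma-voom of 0.0233, 0.0194, 0.0268, 0.0244 and 0.026. LAMA3, EPCAM and F11R, a junction adhesion molecule, were called lower, with -3.15, -4.40 and -1.63. The estimated correlation within a dog was 0.893, and dog 6 is the only dog with both kinds of tissue in this fit. The fit therefore leans on 1 tissue against 1 tissue. Log2 ratios of Ln6.2 to P6.1 alone were 12.27 for COL6A5, 4.82 for LTBP2, 5.33 for THBS4, 3.46 for TREM2 and 3.17 for EGF. For LAMA3, EPCAM and F11R they were -3.57, -4.94 and -1.84. When the dog 4 metastases were instead summed into 1 sample, edgeR called 0 genes, and COL6A5, LTBP2, THBS4, TREM2 and EGF each had an adjusted p of 0.969.

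**Figure D4:**
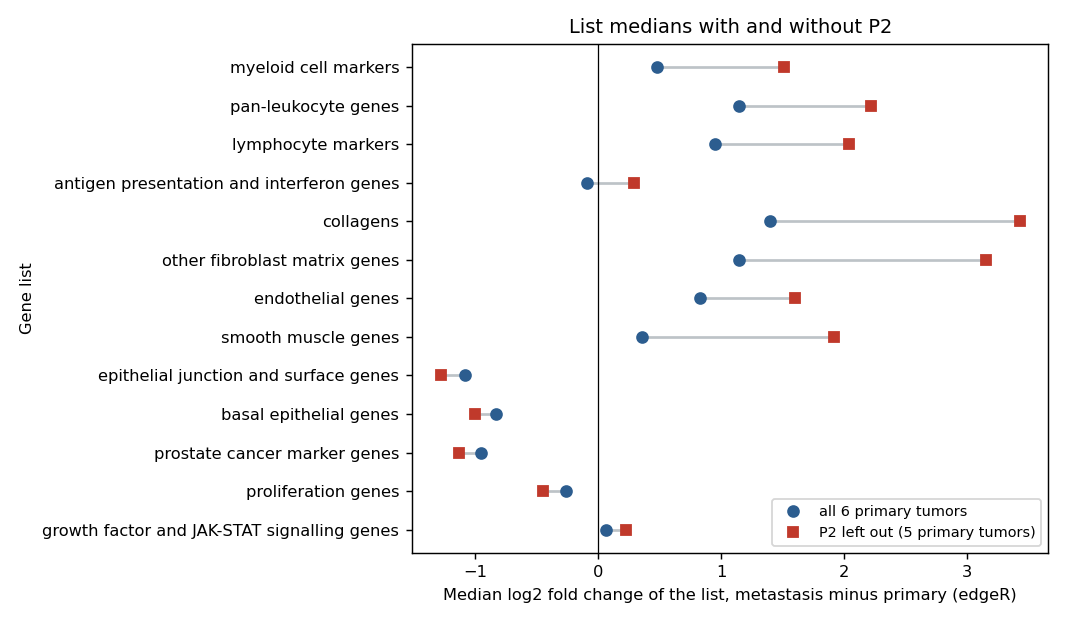
Median log2 fold change (metastasis minus primary, edgeR) of 13 gene lists with all 6 primary tumors (blue circles) and with P2 left out (red squares). The collagen median moves from 1.40 to 3.43 and the epithelial median from -1.08 to -1.28.

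To look at both dogs separately, the dog 4 metastases were compared with the 5 primary tumors of other dogs than 6, and Ln6.2 with P6.1. The 2 comparisons share no tissue. For dog 4, edgeR called 0 of 15103 genes (0%), 810 genes (5.36%) had an unadjusted p under 0.05, and DESeq2 called 173 genes, 78 higher and 95 lower. Both dog 4 metastases were at least 2-fold above all 5 primary tumors in 157 genes (1.04%), and at least 2-fold below in 26 genes (0.172%).

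The 26 genes that were low in dog 4 were mostly low in dog 6 too. Of them, 25 (96.2%) were lower in Ln6.2 than in P6.1, beside 49.9% of all genes, and 16 (61.5%) were at least 2-fold lower, beside 11.6% of all genes. The 3 of them with symbols are MUC13, IRX2 and PUS10, with log2 ratios of -7.39, -2.09 and -0.44 in dog 6. The 157 genes that were high in dog 4 were divided in dog 6. Of these, 75 (47.8%) were higher in Ln6.2 than in P6.1, beside 50.1% of all genes. At least 2-fold higher were 40 (25.5%), and at least 2-fold lower were 42 (26.8%), beside 14.8% and 11.6% of all genes. Without P2 among the primary tumors, 987 genes were high in dog 4, and 850 of them (86.1%) were higher in Ln6.2. In that setting the dog 4 metastases, PAC of a male, were set against TCC of the bladder from females only.

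Among the 16 genes with symbols that were high in dog 4, EGF, A2M, COL6A5, TBX1 and STOX1 were also at least 2-fold higher in Ln6.2, with log2 ratios of 3.17, 3.96, 12.27, 3.01 and 3.12. EGR3 had a ratio of 0.90. PKP2, TGM1, GDF6 (a bone morphogenetic protein), PROB1 and ABHD12B had negative ratios of -0.72, -1.78, -2.54, -3.12 and -1.25. SLC12A2, a sodium potassium chloride cotransporter, had a log2 difference of 3.68 in dog 4 and a ratio of -0.71 in dog 6.

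Ln6.2 and P6.1, from the same dog, differed by at least 2-fold in 2228 genes upward (14.8%) and 1755 downward (11.6%). At least 4-fold, 1049 (6.95%) were higher and 821 (5.44%) lower. With 1 tissue on each side there is no replicate check, so these values describe 2 libraries. All 15 collagens were at least 2-fold higher in Ln6.2, with a median log2 ratio of 3.22 (all genes: 0), and 28 of 34 other matrix genes were, with a median of 2.82. Of 13 lymphocyte markers 10 were at least 2-fold higher, with a median of 1.69, and all 12 endothelial genes were higher, with a median of 2.01. All 22 epithelial genes were lower in Ln6.2, 19 of them by at least 2-fold, with a median of -3.85. Of 11 basal genes, 8 were at least 2-fold lower. By contrast, proliferation genes had a median of 0.42, with 16 of 18 higher, and the signalling genes were divided, with 13 higher and 13 lower. In dog 4 the medians of collagens and epithelial genes were nearer to 0, at 0.63 and -1.02 (all genes: -0.19). The dog 4 comparison has P2 among its primary tumors, so the medians of the 2 dogs refer to unlike tumors. Summed TPM of collagens was 21100 in Ln4.2, 2760 in Ln4.3 and 17700 in Ln6.2, beside 34200 in P2 and 1080 in P6.1.

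Among genes with symbols and at least 50 counts in either tissue of dog 6, the largest log2 ratios in favour of Ln6.2, with a prior count of 2, were those of COL6A5, TBX18, CCDC3, ANPEP and SLITRK2. COL6A5 had 17493 counts in Ln6.2 and 2 in P6.1, a ratio of 10500 with an exact 95% interval of 2900 to 86500 for counting error only. TBX18, a transcription factor of mesenchyme, had 782 and 2 counts, a ratio of 468 (129 to 3870). CCDC3, a secreted protein, had 515 CPM in Ln6.2 and 7.10 in P6.1, a ratio of 72.5. ANPEP, the membrane peptidase CD13, had 210 and 2.96 CPM, a ratio of 71.0. SLITRK2 had 185 and 2 counts, a ratio of 111 (30.2 to 922). In P2, TBX18, CCDC3 and ANPEP had 32.3, 190 and 252 CPM.

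With the same prior count, the largest ratios in favour of P6.1 were those of TMPRSS2, CLDN7, PSCA, LAMB3 and MUC13. TMPRSS2 had 1 count in Ln6.2 and 7944 in P6.1, and P6.1 exceeded Ln6.2 by a ratio of 6630 (1190 to 262000). CLDN7, a claudin of tight junctions, had 1 and 1422 counts, a ratio of 1190 (213 to 46900). PSCA, a surface antigen of prostate and urothelium, had 3 and 1583 counts, a ratio of 440 (150 to 2140). LAMB3, a laminin chain, had 3.97 CPM in Ln6.2 and 1010 in P6.1. In Ln4.2 and Ln4.3, CLDN7 had 96.5 and 162 CPM, beside 2.82 CPM in P2 and 84.1 to 149 in the other primary tumors. LAMB3 had 308 and 487 CPM in these metastases and 12.4 CPM in P2. TCC1509, the line of P6.1, had 0 CPM of TMPRSS2, 0.154 of CLDN7 and 26.6 of EPCAM. Low epithelial levels thus stood beside high matrix levels in Ln6.2, and what part the cell content of the tissue has in them was not tested.

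**Figure D5:**
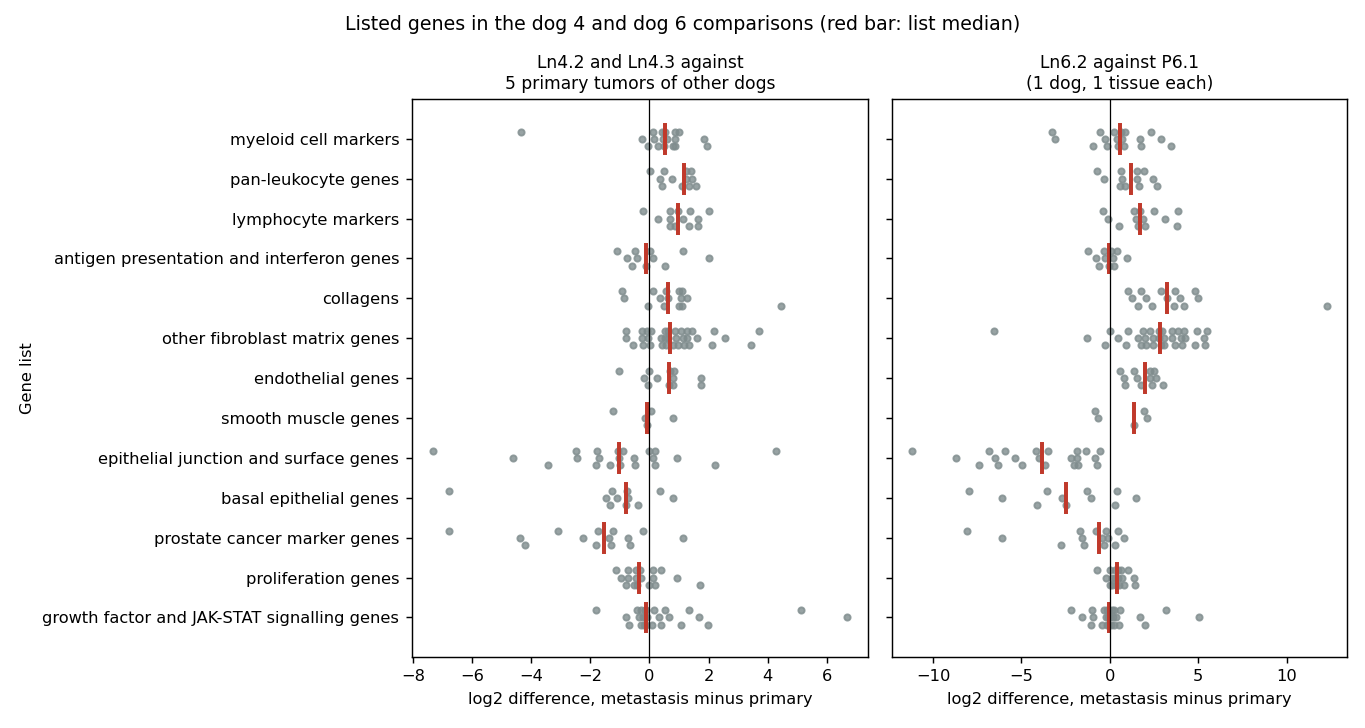
Log2 difference (metastasis minus primary) of each listed gene, one grey point per gene with the list median as a red bar, for the dog 4 metastases against 5 primary tumors (left) and Ln6.2 against P6.1 (right). The axes have different ranges: the epithelial median is -1.02 on the left and -3.85 on the right, and the collagen medians are 0.63 and 3.22. P2 is among the primary tumors on the left only.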

How the data were processed

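Total RNA of 9 frozen tissues was sequenced as single reads. According to the study's methods and the submitters' processing notes, the authors used Trimmomatic 0.36 for trimming, STAR 2.5.3 for alignment (genome CanFam3.1) and RSEM 1.3.0 to quantify Ensembl genes. The authors deposited, for each lane, expected counts that had not been normalized, and TPM. Expected counts were summed over 4 lanes and rounded; TPM were averaged over lanes and served for list sums only. The 32183 identifiers include 1120 with a symbol.

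Genes with at least 10 counts in at least 3 of the 9 tissues entered (15103). Differences were tested with edgeR 4.0.16 (TMM, quasi-likelihood F test, Benjamini-Hochberg; R 4.3.3), with calls at 2-fold and an adjusted p no larger than 0.05. Standard errors were derived from the fold change and the F statistic. limma 3.58.1 (voom) and DESeq2 1.42.0 were alternatives. Log2 CPM and the ratio of Ln6.2 to P6.1 used a prior count of 2. In cell lines, libraries were pooled and CPM refer to their own totals. At these depths, 3 counts correspond to 0.166 to 0.252 CPM. Scripts were tested on simulated data.

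The labels give no separate extractions, and P6.1 and Ln6.2, like Ln4.2 and Ln4.3, share a dog, so p-values measure the spread between tissues and not between independent dogs. The members and lists were chosen with earlier results of these data known. Named genes have a symbol and are, in each list, the 4 tested members with the lowest p; for dog 6, the 5 largest ratios in each direction with at least 50 counts in either tissue; defining markers of cell types; and genes without overlap between the groups, named after their values were seen, as were those called under an alternative. No gene passed the main test, so the rule for called genes named none. Figures were drawn with matplotlib 3.10.9. Some listed genes are not reported here.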

Additional observations from a re-analysis of the deposited data

Results flagged for a closer look

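In the 6 primary tumors, 65 values (list sums and named genes, log2 scale) were examined for a tissue far from the rest, and 7 were found, where chance alone gives about 1 in 20. Of these, 3 belonged to P2. Its summed TPM was 34200 for collagens (317 to 1080 in the others) and 360 for epithelial genes (2700 to 6440 in the others), and its level of P2RY10 was 8.82 CPM (0.136 to 0.829 in the others). B7 had a summed TPM of 1060 for antigen presentation and interferon genes, against 4690 to 9390, and 223 CPM of CDCA7L, against 31.6 to 47.7. ICAM1 was at 9.01 CPM in B9, against 87.4 to 183, and EGF was at 0.332 CPM in B10, against 0 to 0.0682. What sets these tissues apart was not tested.

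Of 207 listed genes examined, PKP2 and TGM1 were the 2 flagged as opposite in the 2 dogs. A flag needed both dog 4 metastases to lie at least 2-fold beyond all 5 primary tumors. Listed genes without such a gap were not flagged even where the sign changed. Examples are MAL2 (log2 difference 0.92 in dog 4, ratio -6.3 in dog 6) and LAMB3 (0.78 and -7.95). For PKP2 and TGM1, both dog 4 metastases lay above their 5 primary tumors. Ln6.2 lay below P6.1, with log2 ratios of -0.72 for PKP2 and -1.78 for TGM1. The difference between the dogs was not tested.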

How the results depend on the processing

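The count of genes called in the 3 against 6 comparison was 0 with edgeR. It was 204 with DESeq2, 59 with DESeq2 at an adjusted p of 0.01 and the authors' filter, 1738 with DESeq2 and P2 left out, and 307 with limma-voom and the dog as a replicate block, the fit for the only pairing, where dog 6 gave tissue to both groups. Leaving out 1 tissue at a time in edgeR gave 0 to 239 genes, and P2 alone gave the count above 0. The dog 4 comparison gave 173 genes with DESeq2. In dog 6, 1870 genes passed 4-fold. Genes with a 2-fold gap between the groups numbered 533 without P2 and 145 without Ln6.2, against 27. Without P2, 86.1% of the genes high in dog 4 were also higher in Ln6.2. Over the 500 most variable genes, Ln6.2 and P6.1 ranked 26 and Ln4.2 and Ln4.3 ranked 2 among the pairs. Of 1136 alternative values for 52 named genes, 68 passed the threshold under an alternative only and 15 reversed in sign. With prostate tumors only, these were ACTA2 (-0.86), ADGRA2 (-0.17), CD93 (-0.35), FLNC (-0.14), TCF7 (-0.09), TLR2 (-0.19), SASS6 (0.44) and VRK1 (0.10). SASS6 was at 0.14 with the block. GUCY1A1 was at 0.23 (DESeq2, P2 left out) and 0.47 (voom, no block), and from -1.63 to 0.21 when 1 tissue was left out. LMOD3 was at 0.07 (voom, no block) and from -0.40 to 0.12 when 1 tissue was left out. The causes were not tested. The fits of DESeq2 without P2 and of DESeq2 at 0.01, and the gap and dog 4 values under other settings, were added after the data had been seen. Depth limits EGF and IRX2, which rest on a few counts in 1 group. It limits HNF4G in both groups, with 1 count in each metastasis but only 3 in P2 and 4 in B8.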

Other observations

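ESR2, which encodes the estrogen receptor beta, did not pass the count filter and was not tested. It had 108 counts (6.78 CPM of the library total) in Ln6.2, and 0 to 3 counts in each of the other 8 tissues, P6.1 with 2 counts included. It was picked out after its values were seen.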
